A study of Mus musculus with 12 samples.

Results

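The RNA of elastin and of the proteins that help to assemble it was measured in mouse proximal thoracic aorta, in 7 libraries of chronic aneurysms (cPTAA) and 5 libraries of sham-operated vessels. The members were chosen by gene symbol and are Eln, the fibulin genes Fbln1, Fbln2, Fbln5, Efemp1 and Efemp2, the emilin gene Emilin1, and Mfap4. All 8 were found among the 30130 genes listed, and all 8 passed the filter on low values, with 21415 genes tested. The cPTAA animals were given elastase around the aorta together with BAPN, an inhibitor of lysyl oxidases. The sham animals had sham surgery and drank normal water. All animals were male mice of a strain labelled C56BL/6J, and the sources used here give neither their age nor the time from surgery to harvest. Nothing in the labels says which animal a library came from or whether tissue was pooled, so the spread that p-values rest on is that between libraries and may be partly technical. The effects of elastase and of BAPN cannot be told apart.

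Elastic fibres give the aorta its recoil. In the aortic wall smooth muscle cells secrete soluble tropoelastin, which gathers at the cell surface, is laid on a scaffold of fibrillin microfibrils and is crosslinked by lysyl oxidases, the enzymes that BAPN inhibits. Fibulins are calcium-binding glycoproteins that bring tropoelastin, microfibrils and crosslinking enzymes together. Emilin1 sits at the interface of elastin and microfibrils, and Mfap4 is a fibrinogen-related glycoprotein that binds elastin and microfibrils. The measurements here are of RNA, and an RNA level says nothing of how much fibre is in the wall.

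Reads assigned to genes, recovered from the deposited values, numbered 14078885 to 17493428 per library. Smooth muscle markers, which define the tissue, were present in every library, with summed levels of 70812 to 273893 normalised read counts in cPTAA and 225181 to 304672 in sham. Of these 10 markers, 0 rose and 5 fell. Here and below, a gene rose or fell if its limma adjusted p was under 0.05, as 12.9% and 11.1% of all tested genes did. Small counts in the marker lists are near those shares. Markers of neighbouring tissues differed between libraries of 1 group. Heart muscle markers (0 of 8 rose, 0 fell) summed to 133451 in cPTAA 9, 24323 in cPTAA 7 and 20102 in cPTAA 6, against 1208 to 1845 in the other 4 cPTAA libraries and 1297 to 7147 in sham. Cartilage markers (2 of 7 rose, 1 fell) summed to 10307 in cPTAA 12 against 655 to 3361 in the other 6 cPTAA libraries, and to 5819 in sham 8 against 314 to 602 in the other 4 sham libraries. Brown adipocyte markers, of the fat around the aorta, fell in 8 of 9 cases, with sums of 1994 to 45852 in cPTAA and 34269 to 107278 in sham. Zic1 did not pass, and Zic1 and Cpt1b were each at 0 in at least 1 library. Fibroblast markers (2 of 8 rose, 1 fell) summed to 45669.7 to 60904 in cPTAA and 24004 to 43577 in sham, and their part in the results was not tested. Endothelial markers fell in 4 of 8 cases, white adipocyte markers in 2 of 5 and mesothelial markers in 2 of 4, and 0 of these rose. In whole tissue, fewer cells of a type and less RNA per cell cannot be told apart.

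Sequence upstream of 3 fibulin genes is shown to give the context of their start sites. RefSeq promoter windows on the build GRCm38.p6 were found for 6 members, 10 windows in all, and Eln and Mfap4 had none. These 3 are the windows whose start site is the outer end of the RefSeq gene, and the 250 bases before it are printed 5′ to 3′ in the direction of transcription. Capitals mark matches to any of 4 motifs, searched on both strands.
Fbln5, chr12:101819120-101819369, minus strand: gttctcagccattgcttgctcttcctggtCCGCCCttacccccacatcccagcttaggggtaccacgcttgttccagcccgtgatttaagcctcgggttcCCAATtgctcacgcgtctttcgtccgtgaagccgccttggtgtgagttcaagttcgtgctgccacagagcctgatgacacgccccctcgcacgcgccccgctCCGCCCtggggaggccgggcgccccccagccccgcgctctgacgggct
Efemp2, chr19:5473696-5473945, plus strand: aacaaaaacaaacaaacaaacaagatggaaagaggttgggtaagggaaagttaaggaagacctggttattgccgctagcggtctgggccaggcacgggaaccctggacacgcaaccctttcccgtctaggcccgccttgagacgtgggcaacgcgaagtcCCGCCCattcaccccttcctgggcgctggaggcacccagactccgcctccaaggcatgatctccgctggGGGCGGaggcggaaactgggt
Fbln1, chr15:85205699-85205948, plus strand: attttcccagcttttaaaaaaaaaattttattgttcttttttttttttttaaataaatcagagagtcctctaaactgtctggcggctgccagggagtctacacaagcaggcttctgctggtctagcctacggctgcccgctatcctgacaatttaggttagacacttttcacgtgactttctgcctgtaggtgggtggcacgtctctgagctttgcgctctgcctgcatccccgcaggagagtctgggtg
The Fbln5 window holds 2 GC boxes and 1 CCAAT box, the Efemp2 window holds 2 GC boxes, and no match to the 4 motifs is in the Fbln1 window. The GC box, spelled GGGCGG, occurs in 32.7% of all 32851 promoter windows of this length. The CCAAT box, spelled by its name, occurs in 33.9% of those windows. The TATA box was searched as TATAAA, and 12.4% of the windows hold it. The AP-1 motif was searched as TGANTCA, with any base at N, and 6.75% of the windows hold it. The G and C content is 65.2% for Fbln5, 59.2% for Efemp2 and 46.4% for Fbln1, against a median of 52.4% over all windows. These values depend on the start site chosen. The other Fbln5 window holds 0 matches and has 49.6% G and C, and the other Fbln1 window holds 1 GC box and has 62.4%. The other 2 Efemp2 windows hold 5 GC boxes each and have 75.6% and 78.8%. Of the members whose windows are not printed, Fbln2 has 1 GC box, Emilin1 has 0 matches, and Efemp1 has 1 GC box and 1 AP-1 match. These matches describe the letters in the windows and were not linked to any measurement.

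Of the 8 members, 5 rose in the aneurysms, 0 fell and 3 did not pass. The risers were Eln, the assembly fibulins Fbln5 and Efemp2, Fbln2 and Emilin1, and the others were Fbln1, Efemp1 and Mfap4. Over all tested genes, 12.9% rose and 11.1% fell by limma at an adjusted p under 0.05. The median log2 fold change was 0.87 over the 8 members and -0.05 over all tested genes. Values are normalised read counts, and fold changes are cPTAA over sham on the scale of log2(value + 1), with standard errors and limma adjusted p over all tested genes.

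**Figure D1:**
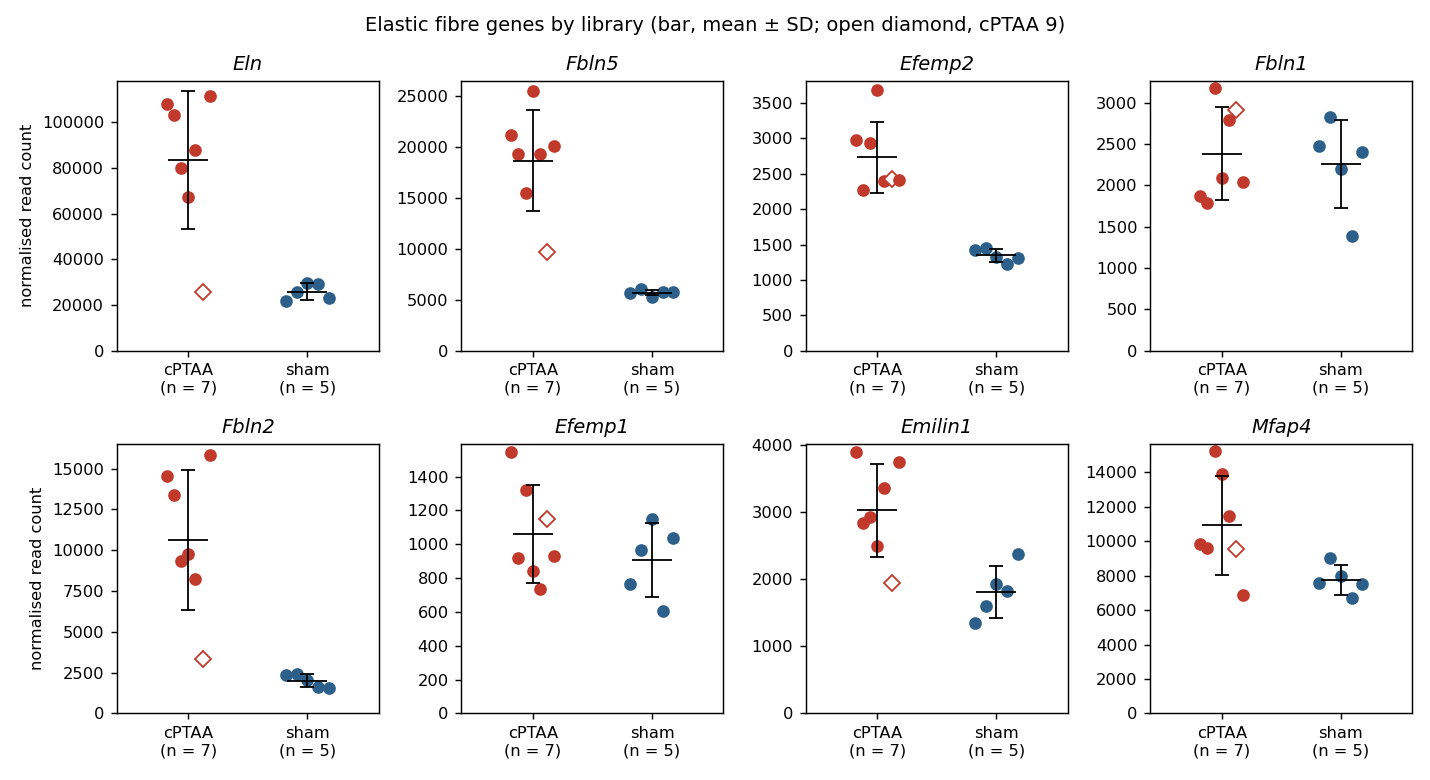
Normalised read counts (linear axes from 0, a scale for each gene) of the 8 genes in each cPTAA and sham library, with points for libraries, bars for the mean ± SD and an open diamond for cPTAA 9. Fbln5, Efemp2 and Fbln2 were higher in all 7 cPTAA libraries than in any sham library, while Eln in cPTAA 9 (25570.4) lay among the sham values.

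Eln, the gene of elastin itself, was higher in 6 of 7 aneurysms than in any sham library. It ranged from 25570.4 to 111225 normalised read counts in cPTAA, with a median of 87669. The sham libraries had 21820.0 (sham 1), 25481 (sham 5), 29663 (sham 8), 29249.8 (sham 10) and 23007 (sham 11). Those 6 aneurysms were at 67331 or more, and cPTAA 9 lay within the sham range. The means were 83320.0 ± 30030.4 in cPTAA (SD, n = 7) and 25844 ± 3555 in sham (SD, n = 5). The log2 fold change was 1.57 ± 0.35 (limma adjusted p = 0.00475). Eln took 0.558% ± 0.220 of all reads assigned to genes in cPTAA (SD, n = 7) and 0.156% ± 0.0270 in sham (SD, n = 5). In cPTAA 9 the share was 0.149% (Wilson 95% interval 0.147% to 0.151%, counting error only), and in cPTAA 12 it was 0.791% (0.786% to 0.795%). Without cPTAA 9 the log2 fold change of Eln was 1.83 ± 0.22 (limma adjusted p = 3.31e-05, range over alternatives 7.22e-08 to 0.440). With any 1 library left out it was between 1.48 and 1.83, and it passed each time. The highest Eln was in cPTAA 12, which also had the lowest smooth muscle sum (70812) and the highest cartilage sum (10307), and the part of cartilage RNA was not tested.

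The assembly fibulins rose without overlap between the groups. Fbln5, which binds tropoelastin and cell-surface integrins and is needed for elastic fibres in mice, ranged from 9654 to 25441 in cPTAA, with a median of 19331. The sham libraries had Fbln5 at 5693 (sham 1), 6026 (sham 5), 5280.0 (sham 8), 5781 (sham 10) and 5743 (sham 11). The coefficient of variation of Fbln5 was 26.5% in cPTAA and 4.73% in sham, and even the lowest aneurysm was above all sham libraries. The log2 fold change of Fbln5 was 1.66 ± 0.21 (limma adjusted p = 6.40e-05). Efemp2, which tethers lysyl oxidase to tropoelastin, ranged from 2270.5 to 3687 in cPTAA, with a median of 2424. Efemp2 in sham was at 1418 (sham 1), 1456 (sham 5), 1329 (sham 8), 1221 (sham 10) and 1313 (sham 11). Among the aneurysms the coefficient of variation of Efemp2 was 18.5%, the lowest of the 8 genes, and cPTAA 9 was the fourth lowest of 7 for this gene. Its log2 fold change was 1.002 ± 0.13 (limma adjusted p = 9.24e-05). Among tested genes, 8.02% had every cPTAA library above every sham library, as 3 of these 8 members did, and 4.95% had every cPTAA library below every sham library, as 0 of the 8 did.

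The other fibulins divided. Fbln2, which binds tropoelastin and microfibrils and is found in developing and injured vessel walls, ranged from 3330.5 to 15808 in cPTAA, with a median of 9775. Its sham values were 2366 (sham 1), 2429 (sham 5), 2064 (sham 8), 1605 (sham 10) and 1544 (sham 11). All aneurysms exceeded all sham libraries, and cPTAA 9 was the lowest of them. The log2 fold change of Fbln2 was 2.29 ± 0.32, a 4.90-fold difference and the largest of the 8 (limma adjusted p = 0.000122). Fbln1, a fibulin of elastic fibres and basement membranes, ranged from 1783 to 3171 in cPTAA, with a median of 2086. In sham, Fbln1 was at 2469 (sham 1), 2822 (sham 5), 2192 (sham 8), 1389 (sham 10) and 2406 (sham 11). The groups overlapped through most of their range, and the log2 fold change of Fbln1 was 0.08 ± 0.20 (limma adjusted p = 0.805). Its sign turned without sham 10 (-0.08) and without cPTAA 6, 7 and 9 and sham 8 (-0.03). Efemp1, a fibulin of the eye and of fascia, ranged from 735 to 1547 in cPTAA, with a median of 929. Its sham values were 766 (sham 1), 963 (sham 5), 1151 (sham 8), 604 (sham 10) and 1038 (sham 11). The Efemp1 values overlapped as well, with a log2 fold change of 0.22 ± 0.20 (limma adjusted p = 0.464).

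Of the genes of the fibre surface, Emilin1 rose and Mfap4 did not pass. Emilin1 ranged from 1946 to 3891 in cPTAA, with a median of 2928. Its sham values were 1340.0 (sham 1), 1598 (sham 5), 1929 (sham 8), 1821 (sham 10) and 2369.6 (sham 11). The groups overlapped at cPTAA 9, the lowest aneurysm, which was below sham 11. The log2 fold change of Emilin1 was 0.73 ± 0.19 (limma adjusted p = 0.00988). Mfap4 ranged from 6903 to 15243 in cPTAA, with a median of 9821. Mfap4 in sham was at 7587 (sham 1), 9054 (sham 5), 7982 (sham 8), 6705 (sham 10) and 7491 (sham 11). Only cPTAA 12, at 6903, lay within the sham range, and the log2 fold change of 0.46 ± 0.19 did not pass (limma adjusted p = 0.103). Mfap4 passed without cPTAA 12 (adjusted p = 0.0286), by limma with library total scaling (0.0405), by voom with sample weights (0.0184) and by DESeq2 (0.0427), and its adjusted p ranged from 0.0184 to 0.222 over the alternatives.

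A change of more than 2-fold was tested against that size with limma's treat. Only Fbln2 passed among the 8 (adjusted p = 0.0210), where 2.91% of all tested genes passed as higher and 0.425% as lower. Fbln2 did not pass without sham 10 (0.0697) or sham 11 (0.0707). Without cPTAA 9, Eln (0.0266), Fbln5 (0.00226) and Fbln2 (0.00030) all passed, where 3.27% of tested genes passed as higher. The same 3 genes passed without cPTAA 6, 7 and 9 and sham 8, against 4.36% of tested genes.

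**Figure D2:**
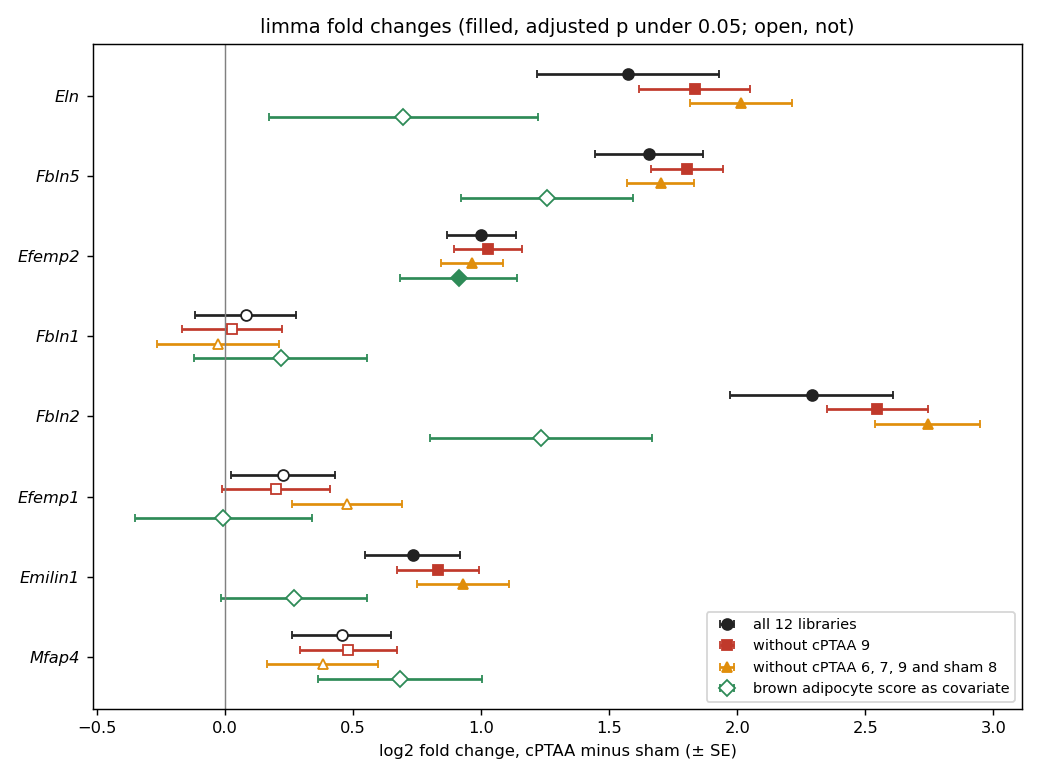
Log2 fold changes (cPTAA minus sham, ± SE) of the 8 genes with all 12 libraries, without cPTAA 9, without the 4 libraries cPTAA 6, 7 and 9 and sham 8, and adjusted for brown adipocyte markers. Filled symbols passed an adjusted p of 0.05. After that adjustment Efemp2 (0.91 ± 0.23) was the only filled symbol of the 8. Fbln5 (1.26 ± 0.34) and Fbln2 (1.23 ± 0.43) had larger fold changes there, with wider errors.

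Brown adipocyte markers differed between the groups as well. Their score, the mean of log2(value + 1) over the 9 markers, was 7.86 ± 1.05 in cPTAA (SD, n = 7) and 10.2 ± 0.655 in sham (SD, n = 5), and the groups did not overlap, with 9.12 at most in cPTAA and 9.19 at least in sham. Among the aneurysms the score was highest in cPTAA 9 (9.12), which had the lowest Eln, and lowest in cPTAA 12 (5.83), which had the highest Eln. The aneurysms between them did not all keep this inverse order. From cPTAA 3 (score 8.52, Eln 103287) through cPTAA 7 and 4 to cPTAA 6 (7.71, 67331), Eln fell along with the score. In cPTAA 2 the score was lower than in these libraries and Eln was higher. A relation between the score and Eln among the aneurysms was not tested. In a fit that adjusts for this score, 1 member passed in place of 5, and 2.30% of all tested genes passed as higher. That member was Efemp2, at a log2 fold change of 0.91 ± 0.23 (limma adjusted p = 0.0453, range over alternatives 1.70e-10 to 0.0453). In that fit Fbln5 had a log2 fold change of 1.26 ± 0.34 (adjusted p = 0.0571), Fbln2 of 1.23 ± 0.43 (0.124), Eln of 0.70 ± 0.53 (0.440) and Emilin1 of 0.27 ± 0.28 (0.588). For these 4 genes it was the only alternative of 22 in which the call was lost. Mfap4 (0.68) and Fbln1 (0.22) had larger log2 fold changes with the adjustment than without it (0.46 and 0.08). Efemp1 had a smaller one (-0.00645 against 0.22). Standard errors were wider in that fit, at a median of 0.476 over all tested genes, against 0.302 in the unadjusted one. Because the groups did not overlap in the score, that fit cannot cleanly tell a difference between groups from one in the score. A call lost in it therefore does not show that a gene did not differ. The part of brown adipocyte RNA in the differences was not tested beyond this fit. Heart muscle markers were highest in cPTAA 9. Without cPTAA 6, 7 and 9 and sham 8 the log2 fold changes of Eln, Fbln5, Efemp2, Fbln2 and Emilin1 were 2.01, 1.70, 0.96, 2.74 and 0.93. All 5 passed, where 17.6% of tested genes rose. That fit leaves out the aneurysm with the lowest Eln (cPTAA 9) and keeps the one with the highest (cPTAA 12).

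Per kilobase of exon, the order of the members differed between the groups. In cPTAA the mean level per kilobase was highest for Eln (10289 ± 3708, SD, n = 7), followed by Mfap4 (5683 ± 1484), Fbln5 (2697 ± 714), Fbln2 (1668 ± 675), Efemp2 (721 ± 133), Emilin1 (614 ± 140.4), Fbln1 (544 ± 129) and Efemp1 (522 ± 142). In sham it was highest for Mfap4 (4039 ± 446, SD, n = 5), followed by Eln (3191 ± 439), Fbln5 (825 ± 39.0), Fbln1 (516 ± 122), Efemp1 (444 ± 107), Emilin1 (367 ± 78.0), Efemp2 (356 ± 24.5) and Fbln2 (314 ± 65.0). Fbln2 was thus the fourth of 8 in cPTAA and the last in sham. Each pair of neighbours overlapped in range between libraries in cPTAA. In sham only the steps from Eln to Fbln5 and from Fbln5 to Fbln1 were without overlap. Exon lengths came from the GENCODE M21 annotation, which is of another build than the counts.

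The balance between elastin and its partners was tested by subtracting Eln from each gene in the same library. Relative to Eln, 4 of the 7 other members were lower in cPTAA and 1 was higher. Because Eln itself rose, 76.3% of all tested genes were lower relative to it and 2.09% higher, so the 4 lower members stand against a background that high. Fbln1 had a log2 difference of -1.49 ± 0.43 (limma adjusted p = 0.00438), Efemp1 of -1.35 ± 0.39 (0.00458), Mfap4 of -1.12 ± 0.41 (0.0190) and Emilin1 of -0.84 ± 0.30 (0.0172). Emilin1 lost this call without sham 11 (-0.697, adjusted p = 0.0639). Fbln2 was higher relative to Eln, by 0.72 ± 0.29 (adjusted p = 0.0317), and did not pass when any 1 of these was left out: cPTAA 2, cPTAA 3, sham 8, sham 10 and sham 11 (adjusted p 0.0518 to 0.0972). Fbln5 had a relative difference of 0.08 ± 0.34 (adjusted p = 0.819) and Efemp2 of -0.57 ± 0.36 (0.150). Without cPTAA 9, Efemp2 was lower relative to Eln (-0.81, adjusted p = 0.00436). In the fit adjusted for the brown adipocyte score, 0 of the 7 passed in either direction, where 0.103% of all tested genes were higher and 0.981% lower.

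**Figure D3:**
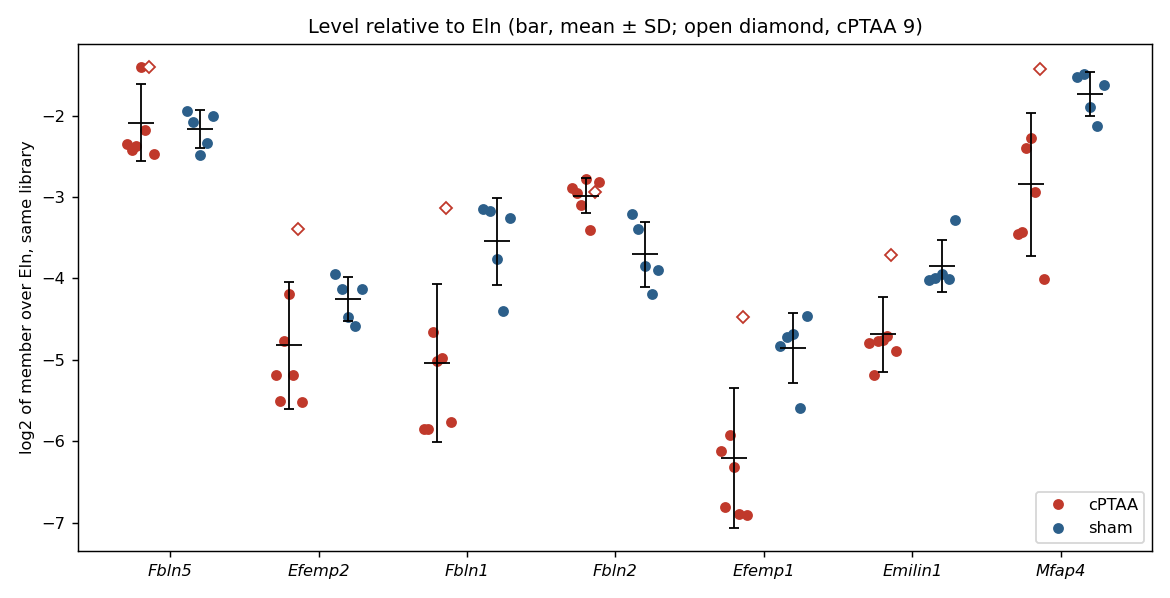
Log2 of each gene over Eln in the same library (y axis) for cPTAA and sham libraries, with points for libraries, bars for the mean ± SD and an open diamond for cPTAA 9. Fbln1, Efemp1, Mfap4 and Emilin1 lay lower in cPTAA, with cPTAA 9 above the other aneurysms for each of them.

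Among the 7 aneurysms, Fbln2 and Emilin1 followed Eln by Pearson's r. Relations with Eln were tested on the log2(value + 1) scale by two-sided exact permutation, with Benjamini-Hochberg adjustment over the 7. Of these, 2 passed by Pearson's r and 0 by Spearman's rho. The test was run on the 7 other members only, so the share of all genes that would pass is not known. Fbln2 had r = 0.960 (exact p = 0.00536, adjusted 0.0188) and Spearman's rho = 0.857 (exact p = 0.0238, adjusted 0.0833). Emilin1 had r = 0.893 (exact p = 0.00417, adjusted 0.0188) and rho = 0.857 (exact p = 0.0238, adjusted 0.0833). Without the 2 aneurysms farthest from the median of Eln, cPTAA 6 and 9, r was 0.928 for Fbln2 and 0.583 for Emilin1 over 5 libraries. Without cPTAA 9 alone neither passed (r = 0.799 and 0.797, exact adjusted p = 0.175 for both, range over alternatives 0.0125 to 0.175), and neither passed without cPTAA 12. Fbln2 also did not pass without cPTAA 3, nor Emilin1 without cPTAA 6, so each call depends on several single libraries. Fbln5 had r = 0.793 (exact p = 0.0907, adjusted 0.212) and rho = 0.393 (exact p = 0.396, adjusted 0.554), and its r was 0.978 without cPTAA 6 (exact adjusted p = 0.0292, range over alternatives 0.0292 to 0.736) and -0.21 without cPTAA 9. The other 4 had r of 0.011 and rho of -0.321 (Efemp2), -0.074 and 0.143 (Efemp1), -0.132 and -0.393 (Mfap4), and -0.555 and -0.679 (Fbln1), with exact adjusted p of at least 0.256 for either measure. Without cPTAA 6 and 9 the r of Mfap4 was -0.913 and that of Fbln1 -0.931 over 5 libraries, against -0.275 for Efemp2 and 0.0525 for Efemp1.

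Within groups, Fbln2, Fbln5 and Emilin1 covaried with Eln more closely than the other members did. The Pearson r of deviations from the group means over the 12 libraries is given as a description, and cPTAA 9 enters all of them. Eln, Fbln2, Fbln5 and Emilin1 had r between 0.48 and 0.88 in their 6 pairs, and cPTAA 9 was the lowest aneurysm for each of these genes. Efemp2 had r = 0.66 with Mfap4 and -0.03 with Eln, and Fbln1 had r = 0.50 with Mfap4 and -0.48 with Eln. Over 28 pairs, 17 were above 0. Among 15932 other genes with a mean of at least 10, Fbln2 ranked 380 in likeness to Eln, Fbln5 1587 and Emilin1 1765. The 5 genes most like Eln were Piezo2, a mechanosensitive ion channel (r = 0.977), Crim1, a membrane protein that binds BMPs (0.973), Foxp1, a transcription factor (0.970), Fgd6 (0.969) and Kif26b (0.969). The 3 most like Fbln2 were Ccn4 (0.957), Smad2 (0.948) and Zmat3 (0.945), and those most like Fbln5 included Itgb5 (0.948) and Srp54b (0.938). For Emilin1 they were Arhgef17 (0.950), Rab43 (0.927) and Ctdsp2 (0.923), and for Efemp2 Dap (0.912), Aptx (0.900) and Ctsa (0.898). Mfap4 was most like Calhm5 (0.938), Gm12715 (0.926) and Rsu1 (0.914), Fbln1 like Folh1 (0.941), Gm13414 (0.869) and Gm49490 (0.843), and Efemp1 like Slc16a3 (0.895), Scly (0.869) and Rab7b (0.864).

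**Figure D4:**
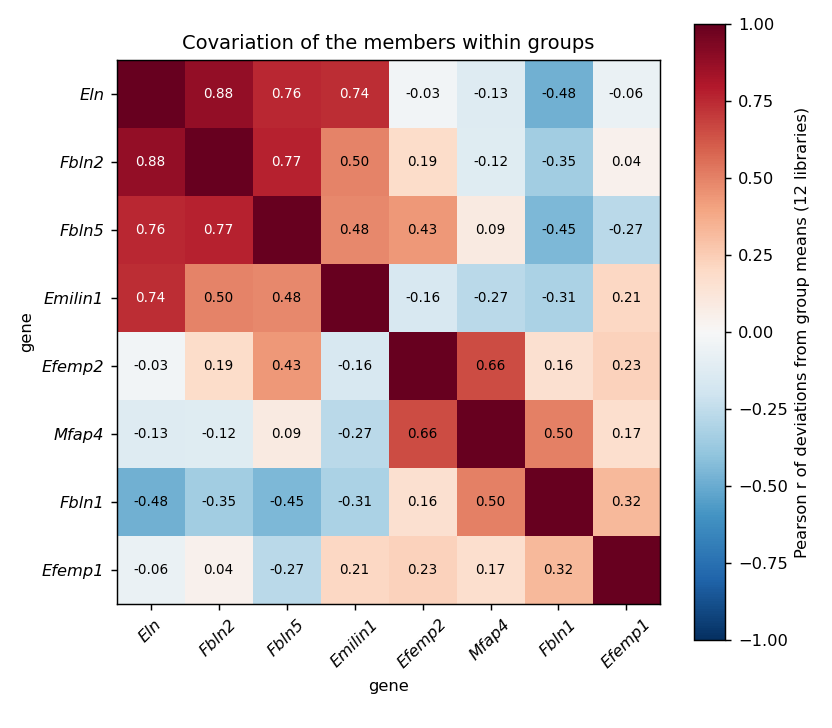
Pearson r of deviations from group means on the log2(value + 1) scale over 12 libraries for each pair of the 8 genes, with red for positive and blue for negative r. Pairs among Eln, Fbln2, Fbln5 and Emilin1 had r from 0.48 to 0.88, and the lowest value is -0.48 between Eln and Fbln1. These 4 genes are not set apart from the rest, since Efemp2 and Mfap4 had r = 0.66.

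Genes related to the elastic fibre, from its scaffold and crosslinking to its proteases and receptor, were mostly higher. Of 35 genes in 5 lists, 34 were tested, 23 rose and 0 fell, with a median log2 fold change of 1.01. By the same limma test, 12.9% of all tested genes rose and 11.1% fell. The lists were chosen with earlier results of these data known. Adjusted for the brown adipocyte score, 5 rose and 0 fell, where 2.30% of all tested genes rose and 1.01% fell. These 5 were 4 elastin-degrading proteases and 1 microfibril gene. They included 0 of the lysyl oxidases, 0 of the emilin and fibulin relatives and 0 of the elastin receptor genes. In the microfibril scaffold 6 of 8 rose, and Ltbp2, a latent TGF-beta binding protein that interacts with Fbln5, was at 16602 ± 5116 normalised read counts in cPTAA (SD, n = 7) and 2637 ± 397 in sham (SD, n = 5), a log2 fold change of 2.60 ± 0.24 (limma adjusted p = 5.93e-06). Fbn1, the main fibrillin of adult vessels, was at 13034 ± 5750.2 in cPTAA and 4398 ± 727 in sham (log2 fold change 1.41 ± 0.34, adjusted p = 0.00678). The members of this list that did not pass were Ltbp1 and Ltbp4, with log2 fold changes of 0.12 ± 0.29 (limma adjusted p = 0.807) and -0.18 ± 0.25 (0.652), the second of which aids elastin assembly with Fbln5. Of the lysyl oxidases 4 of 5 rose (0 of 5 with the brown adipocyte adjustment), with Loxl1, which binds Fbln5, at 5589 ± 1019 in cPTAA and 2429 ± 506 in sham (log2 fold change 1.21 ± 0.17, adjusted p = 0.000121). Lox itself was at 11266 ± 6087 in cPTAA and 1896 ± 258 in sham (log2 fold change 2.35 ± 0.38, adjusted p = 0.000442). Loxl4 did not pass (log2 fold change 0.61 ± 0.47, adjusted p = 0.389). Among relatives of emilins and fibulins 2 of 7 rose. These were the multimerin gene Mmrn1, at 1330 ± 378 in cPTAA and 245 ± 120.2 in sham (log2 fold change 2.53 ± 0.30, adjusted p = 3.94e-05), and Emilin2, at 774 ± 263 in cPTAA and 362 ± 92.4 in sham (1.07 ± 0.23, 0.00333). Fbln7, a fibulin outside the 5 described above, did not pass (log2 fold change 0.54 ± 0.32, adjusted p = 0.236).

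Of 11 elastin-degrading proteases 8 rose, where 12.9% of all tested genes rose. Ctss, a lysosomal and secreted cathepsin of macrophages, was at 5589 ± 1651 in cPTAA and 532 ± 256 in sham (log2 fold change 3.45 ± 0.31, limma adjusted p = 5.25e-06). The macrophage elastase gene Mmp12 was at 711 ± 456 in cPTAA and 65.0 ± 60.6 in sham (log2 fold change 3.62 ± 0.46, adjusted p = 5.81e-05). Mmp9, Ctsb and Elane did not pass. Macrophage markers, of which 8 of 8 rose, summed to 32957 to 61416 in cPTAA and 5223 to 24590 in sham. The sham maximum was in sham 8, where Lyz2 alone was at 20798, and the next highest sham sum was 12984 (sham 1). The part of macrophage RNA in the protease levels was not tested. The elastin receptor complex, whose subunits also work in lysosomes, rose in 3 of 3 genes (0 of 3 with the brown adipocyte adjustment), with Ctsa at 5913 ± 713 in cPTAA and 3218 ± 328 in sham (log2 fold change 0.87 ± 0.13, adjusted p = 0.00019).

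**Figure D5:**
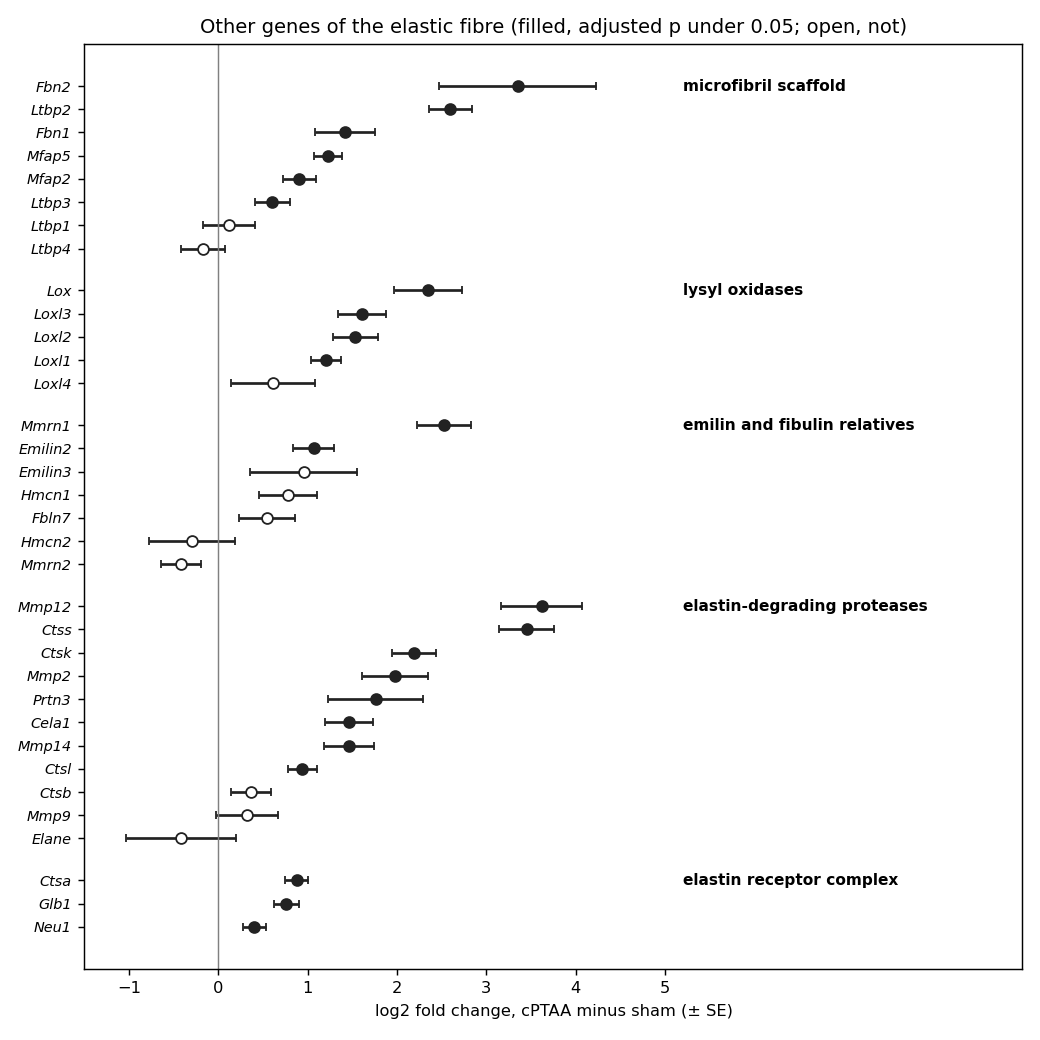
Log2 fold changes (cPTAA minus sham, ± SE) of 34 genes in 5 lists. The lists are the microfibril scaffold, lysyl oxidases, emilin and fibulin relatives, elastin-degrading proteases and the elastin receptor complex. Not all of them are parts of the fibre. Filled symbols passed an adjusted p of 0.05, where 12.9% of all tested genes rose. All 23 filled symbols lie above 0, and the unfilled ones include Ltbp1, Ltbp4, Loxl4 and Mmp9.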

How the data were processed

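Per the labels' protocols, polyadenylated RNA was selected with oligo-dT from snap-frozen tissue. Tools named in the submitters' processing notes were HISAT2 2.0.5, featureCounts 1.5.0-p3 and StringTie, on the build GRCm39; no strand setting, scaling method or filter is given there. The deposited file holds a never-negative signal for each gene, called normalised read counts here. All (100%) of these values were whole reads within 0.02 reads over 1 factor per library, with 1 read worth 0.863 to 1.16 units. Because they are normalised, limma 3.58.1 in R 4.3.3 was used, with a trend on log2(value + 1), which understates changes of low genes, for genes at 1 or more in at least 5 libraries. P-values were adjusted by Benjamini-Hochberg over all tested genes, and a call is an adjusted p under 0.05. The members and lists were chosen with earlier results of these data known. Named genes are the members, the genes most like each in deviation from group means (5 for Eln, 3 for each other), and in each list the gene of smallest p; other list genes were picked after their values were seen. Ctsa came up under both rules. For Fbln5, 1 gene that the rule names is not reported here. Calculations were tested on simulated data. Alternatives were edgeR 4.0.16 and DESeq2 1.42.0 on the recovered reads, voom, other scalings, filters and pseudocounts, a marker covariate and left-out libraries. Exon lengths are unions over transcripts. In the GENCODE M21 annotation, exon bases on opposite strands are shared by Eln and Gm30003 (267), Efemp2 and Mus81 (173), and Mfap4 and Mapk7 (89), and without a strand setting their reads cannot be told apart. The deposited signal of these partners reached at most 4.93, 447 and 293 in cPTAA and 8.15, 349 and 251 in sham.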

Additional observations from a re-analysis of the deposited data

How the results depend on the processing

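No paired analysis was possible because the groups share no replicate number. Over 22 alternatives, the count of members that rose was 1 to 6 and that of members that fell 0. Over all tested genes, 2.30% (brown adipocyte score as covariate) to 21.5% (voom with sample weights) rose, and in the same 2 settings 1.01% and 22.4% fell. The median log2 fold change over all tested genes was -0.05 as reported and lay between -0.10 and 0.06 over the alternatives, above 0 with library total scaling (0.06) and without cPTAA 6, 7 and 9 and sham 8 (0.01). The alternative that adjusts for brown adipocyte markers gave 1 member and 5 pathway genes that rose. Over all tested genes it gave 492 that rose and 217 that fell. It gave 0 members past 2-fold, where 0 of all 21415 tested genes passed in either direction. It gave 0 members lower and 0 higher relative to Eln, where 0.981% and 0.103% of all tested genes were. It also gave Efemp1 a log2 fold change of -0.00645 and Efemp2 a value relative to Eln of 0.216. The libraries cPTAA 6, 7 and 9 and sham 8 were chosen after seeing the data, for their heart muscle and cartilage markers. The choice was uneven, since cPTAA 12, with the highest cartilage sum (10307) and the highest Eln, was kept. The aneurysm with the lowest Eln, cPTAA 9, was left out. Without those 4 libraries, 3 members passed the 2-fold test, Fbln1 was at -0.0280 and Fbln5 relative to Eln at -0.313. With library totals the correlation with Eln was 0.156 for Efemp1 and 0.0803 for Mfap4, and with TMM scaling it was -0.0209 for Efemp2.

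Leaving out 1 library at a time gave 0 to 3 members past 2-fold, 0 to 1 higher relative to Eln, and 0 to 2 relations with Eln. In those fits 2.27% to 3.27% of all tested genes passed the 2-fold test as higher, and 1.46% to 2.29% were higher relative to Eln. The log2 fold change of Fbln1 ranged from -0.0839 to 0.172, and Fbln5 relative to Eln from -0.0297 to 0.148. Correlations with Eln ranged from -0.205 to 0.978 for Fbln5, -0.712 to 0.160 for Efemp2, -0.396 to 0.272 for Efemp1 and -0.863 to 0.149 for Mfap4. Depth limits these genes little, since the lowest value of any member was 604 normalised read counts (Efemp1 in sham 10). The cause of each change was not tested.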
